A study of Mus musculus with 12 samples.

Results

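The fibroblast growth factors (FGFs) described here are 7 genes, Fgf1, Fgf2, Fgf7, Fgf9, Fgf10, Fgf13 and Fgf18, followed across sorted stromal cells of the mouse small intestine and colon. They were taken by symbol from the 32052 genes of the deposited count table, after Ensembl identifiers had been matched to symbols, by a rule that names the genes. The names were chosen with earlier results of these data known. The annotation holds 22 genes whose symbol is Fgf followed by digits, and 17 of them are in the table. All 7 genes passed the filter on low counts that left 16757 genes for testing, which is no separate result given how they were chosen.

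The cells came from C57Bl6-background mice 8 to 12 weeks old that carried a GFP transgene reporting Rspo3, the gene of a secreted Wnt signal enhancer, and all were sorted as EPCAM-negative and CD45-negative stroma. RNA sequencing of total RNA gave 12 libraries in 4 groups of 3: Rspo3-GFP-positive and Rspo3-GFP-negative cells of the colon, and Rspo3-GFP-positive and Rspo3-GFP-negative cells of the small intestine. No treatment is named for any group, and how the reporter was built is not given in the sources used here. The labels do not say that replicates came from separate animals, so p-values measure the spread between these libraries, which may be technical. The column labels give 1 shared identifier to both colon libraries of replicate 2 and another to replicate 3 of all 4 groups, and do not say what it names.

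Library totals ran from 6489835 to 12286054 counts. Rspo3 itself followed the sort, at 117 to 161 CPM (counts scaled to the library total) in GFP-positive against 2.28 to 6.51 CPM in GFP-negative colon, and at 192 to 196 CPM in GFP-positive against 4.50 to 13.7 CPM in GFP-negative small intestine. Fibroblast markers were high in every group, with a summed level of at least 8099 CPM over 10 genes, but the sorted cells were not fibroblasts alone. Lymphatic endothelial markers (7 genes) summed to 4302 to 21050 CPM in the GFP-positive libraries and to 200 to 590 CPM in the GFP-negative ones. Epithelial markers reached 2506 CPM in GFP-negative colon, and leukocyte markers stood at 2941 CPM in GFP-negative small intestine replicate 3, against at most 399.7 CPM in every other library. In such bulk samples fewer cells of a type and less RNA per cell cannot be told apart.

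FGFs are signalling proteins that bind receptor tyrosine kinases (Fgfr1 to Fgfr4) together with heparan sulfate on the cell surface, and the receptors signal through the Ras and MAP kinase pathway, which in turn switches on feedback inhibitors such as the Sprouty genes. Fgf7 and Fgf10 are signals from mesenchyme to epithelium: both act on the epithelial splice form of Fgfr2, and Fgf10 is needed for normal outgrowth of the mouse caecum and colon. Fgf1 activates all the receptor forms, Fgf2 and Fgf9 act mostly on the mesenchymal forms, Fgf18 acts on mesenchymal forms in lung and bone, and Fgf13 belongs to the FGF homologous factors, which stay inside the cell and bind voltage-gated sodium channels.

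The promoter sequences of Fgf7 and Fgf10 are shown because these 2 genes share a receptor form and gave the largest GFP contrasts of the 7 genes in the small intestine, in opposite directions. Each is the 250 bases before the RefSeq transcription start (GRCm38.p6), 5′ to 3′ on the gene's own strand, for Fgf7 chr2:126034408-126034657 on the plus strand and for Fgf10 chr13:118714449-118714698 on the plus strand, and capitals mark a match to 1 of 4 motifs searched on both strands.
Fgf7: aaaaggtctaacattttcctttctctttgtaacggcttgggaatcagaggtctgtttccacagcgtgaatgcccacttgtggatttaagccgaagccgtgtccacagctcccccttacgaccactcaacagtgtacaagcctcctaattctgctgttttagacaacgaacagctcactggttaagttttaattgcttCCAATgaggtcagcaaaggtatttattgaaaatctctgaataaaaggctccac
Fgf10: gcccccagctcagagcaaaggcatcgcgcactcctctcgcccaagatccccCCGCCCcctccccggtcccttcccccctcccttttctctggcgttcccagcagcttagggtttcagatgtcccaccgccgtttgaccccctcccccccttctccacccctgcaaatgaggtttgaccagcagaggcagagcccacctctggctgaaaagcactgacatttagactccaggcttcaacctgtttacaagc
The Fgf7 window was 43.6% G and C, the Fgf10 window 61.2%, and the median over 32851 promoter windows of this length was 52.4%. The Fgf7 window held 1 CCAAT match, whose first base lies 53 bases before the start, and 33.9% of all windows held that motif (CCAAT or ATTGG). The Fgf10 window held 1 GC box in the reverse-strand form CCGCCC, 199 bases before the start, and 32.7% of all windows held it (GGGCGG or CCGCCC). Neither window held TATAAA or the TCF/LEF core CTTTGA on either strand, motifs found in 12.4% and 13.8% of windows. These matches are descriptions of letters, not of bound sites.

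Fgf7 (ENSMUSG00000027208, GRCm38 chr2:126034658-126091185, plus strand) encodes keratinocyte growth factor, and its contrast between GFP-positive and GFP-negative cells ran in opposite directions in the colon and the small intestine. It had 25.2, 20.7 and 22.4 CPM in GFP-positive against 52.5, 33.9 and 49.8 CPM in GFP-negative colon. It had 34.9, 22.8 and 35.8 CPM in GFP-positive against 8.30, 3.45 and 6.59 CPM in GFP-negative small intestine. The 3 GFP-positive libraries lay wholly below the GFP-negative ones in the colon and wholly above them in the small intestine, and the GFP-negative groups of colon and small intestine did not overlap either. The 4 groups averaged 22.8 ± 2.24 and 45.4 ± 10.04 CPM in GFP-positive and GFP-negative colon and 31.2 ± 7.29 and 6.11 ± 2.46 CPM in GFP-positive and GFP-negative small intestine (SD, n = 3 libraries, as for every mean below).

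Fgf7 rose 5.11-fold in GFP-positive cells of the small intestine (log2 fold change 2.35 ± 0.32, SE, adjusted p = 7.05e-04; edgeR quasi-likelihood test with Benjamini-Hochberg adjustment over all tested genes, here and below). The colon contrast of Fgf7, −0.99 ± 0.30 on the log2 scale, did not pass the threshold (adjusted p = 0.0602). It was past the threshold in 6 of 9 other ways of fitting the data, the replicate block among them (adjusted p = 0.0192), and in 0 of the 6 fits that left out 1 colon library. The difference between the contrasts was tested directly: the colon effect minus the small intestine effect of Fgf7 was −3.35 ± 0.44 (adjusted p = 0.00408), and it was called in all 12 fits with 1 library left out, where its adjusted p was at most 0.0190. Of all tested genes, 2.06% were called for this difference, and Fgf7 was the only 1 of the 7 FGFs called. Of 10 general fibroblast markers, 0 rose and 1 fell in GFP-positive colon, with a summed level of 19770 to 24350 CPM against 25500 to 28050 CPM. In GFP-positive small intestine 9 of the 10 rose, at 39700 to 60910 against 8099 to 23340 CPM, and the difference between colon and small intestine was called for 4 of them, all lower. Telocyte markers, of the Foxl1-expressing subepithelial fibroblasts, fell for 10 of 12 genes in GFP-positive colon and 1 of 12 in GFP-positive small intestine, and the difference was called for 5, all lower. Trophocyte markers, a list that includes Rspo3 itself, rose for 6 of 8 genes in the colon and 7 of 8 in the small intestine, and lymphatic markers for 6 of 7 in each, with 0 called for the difference in either list. Without GFP-negative small intestine replicate 3, the library with high leukocyte markers, the small intestine contrast of Fgf7 was 2.41 (adjusted p = 0.00179). No marker of these 4 lists was at 0 in a group, and the part of such cells in the Fgf7 values was not tested.

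Fgf10 (ENSMUSG00000021732, GRCm38 chr13:118669791-118792115, plus strand), the other ligand of the epithelial form of Fgfr2, fell in GFP-positive cells of both tissues and was higher in the colon than in the small intestine in both GFP states. It had 10.7, 14.4 and 18.2 CPM in GFP-positive against 37.4, 47.2 and 46.7 CPM in GFP-negative colon. It had 2.08, 0.197 and 1.65 CPM in GFP-positive against 6.85, 11.4 and 7.40 CPM in GFP-negative small intestine. GFP-negative colon was highest in each of its 3 libraries, GFP-positive small intestine lowest, and no GFP-positive library overlapped the GFP-negative libraries of its tissue. The lowest of the 12 values rested on 2 counts, and the other GFP-positive small intestine libraries on 25 and 14 counts, so the level of that group is known only coarsely.

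The fall of Fgf10 in GFP-positive cells was 3.04-fold in the colon (−1.60 ± 0.46, adjusted p = 0.0493) and 6.44-fold in the small intestine (−2.69 ± 0.52, adjusted p = 0.00555). The colon call was lost whichever of the 6 colon libraries was left out, with adjusted p of 0.201, 0.164 and 0.0799 for GFP-positive replicates 1, 2 and 3 and of 0.10004, 0.154 and 0.153 for GFP-negative replicates 1, 2 and 3, and was lost with the replicate block as well (−1.63, adjusted p = 0.103). The small intestine call was kept in all 6 such fits, at adjusted p up to 0.0155 (−2.78 and 0.00650 without the GFP-negative library with high leukocyte markers), and was lost on the deposited log2(TPM + 1) scale (adjusted p = 0.224) and when only the small intestine libraries were fitted (adjusted p = 0.103). On the deposited TPM, Fgf10 averaged 0.0362 in GFP-positive and 0.388 in GFP-negative small intestine, low beside the 1 added before the log. The colon effect minus the small intestine effect of Fgf10 was 1.08 ± 0.67 (adjusted p = 0.525), so a different size of effect in the colon and the small intestine was not detected. Fgf10 counts may include a few reads of Gm16263, an antisense gene that shares 123 exonic bases with it and had 38 counts over the 12 libraries, since the sources used here do not say whether strand was used.

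Markers of other cell types were also lower in GFP-positive cells. Smooth muscle markers fell in GFP-positive cells for 6 of 9 genes in the colon (798 to 946 against 3162 to 4136 CPM) and 5 of 9 in the small intestine (1130 to 1331 against 1642 to 4498 CPM). Enteric glia markers fell for 2 of 7 genes in the colon (8.79 to 35.1 against 45.3 to 111 CPM) and 7 of 7 in the small intestine (2.36 to 6.01 against 175 to 377 CPM), with Foxd3 at 0 in GFP-positive small intestine. The telocyte sums were 601 to 636 against 2480 to 2682 CPM in the colon, and in the small intestine they overlapped, at 804 to 1616 against 734 to 1551 CPM. No smooth muscle or telocyte marker was at 0 in a group, and the part of these cells in the Fgf10 values was not tested.

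**Figure D1:**
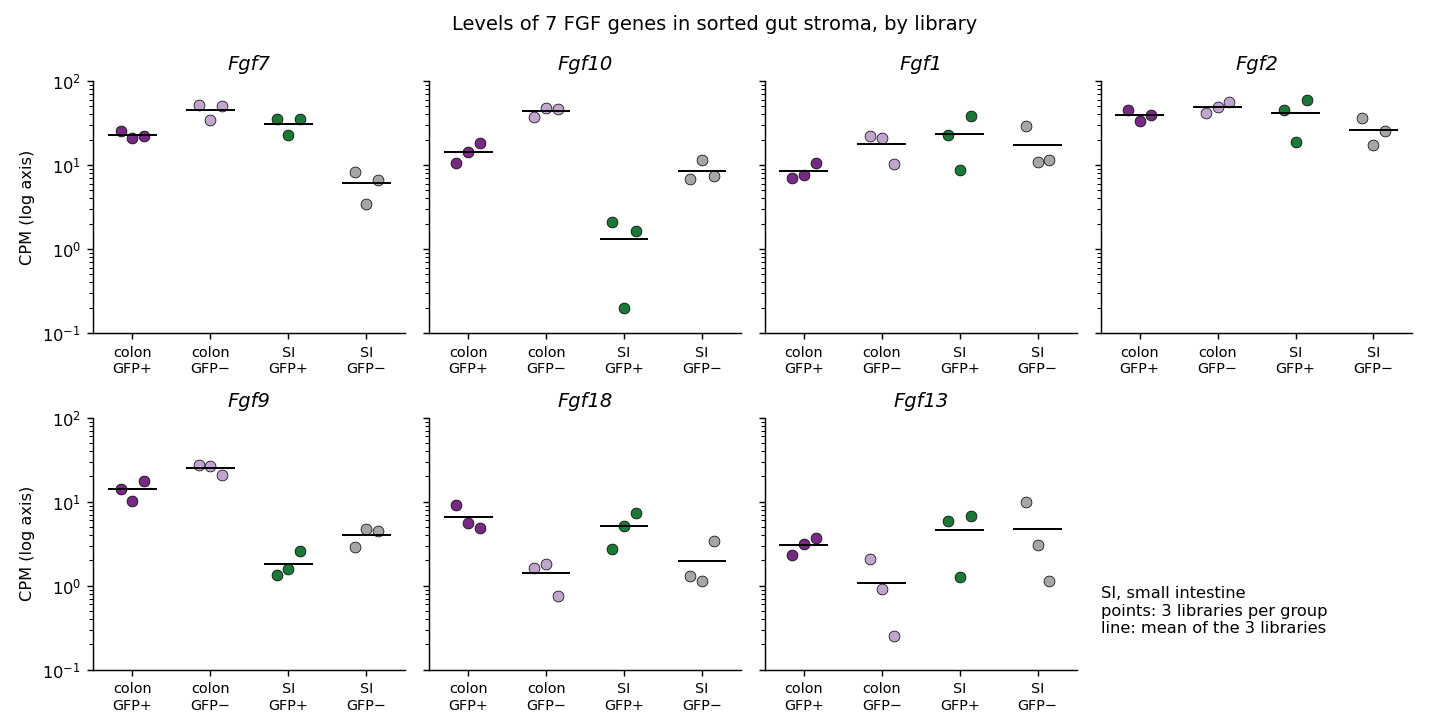
Level of each of the 7 FGF genes in every library, in CPM on a log axis, for GFP-positive and GFP-negative colon and GFP-positive and GFP-negative small intestine (SI). Points are libraries and lines are group means. Fgf7 in GFP-negative small intestine (3.45 to 8.30 CPM) sits below its other 3 groups, and Fgf10 in GFP-positive small intestine is at or below 2.08 CPM.

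Fgf9 (ENSMUSG00000021974, GRCm38 chr14:58070547-58112720, plus strand) separated the colon from the small intestine. It had 14.3, 10.3 and 17.5 CPM in GFP-positive colon against 1.33, 1.58 and 2.60 CPM in GFP-positive small intestine. In GFP-negative cells Fgf9 had 27.7, 26.4 and 20.9 CPM in the colon against 2.89, 4.70 and 4.50 CPM in the small intestine. Every colon library lay above every small intestine library; 24.7% of all tested genes had no overlap between tissues in GFP-positive and 22.6% in GFP-negative cells. Fgf9 was 7.66-fold higher in colon among GFP-positive cells (2.94 ± 0.35, adjusted p = 9.56e-04) and 6.19-fold higher among GFP-negative cells (2.63 ± 0.34, adjusted p = 0.00201). Both calls held in every fit that left out 1 library, and the first was not called with limma on the TPM scales (adjusted p = 0.107 and 0.141). Those fits used the deposited TPM, not rescaled to protein-coding genes. There GFP-positive small intestine replicate 3 carried 0.797 TPM of Fgf9 against 0.0471 and 0.121 TPM in replicates 1 and 2, at 22, 16 and 16 counts. GFP-positive cells had the lower Fgf9 values in each tissue without overlap, but neither contrast was called (colon −0.83 ± 0.32, adjusted p = 0.153; small intestine −1.14 ± 0.35, adjusted p = 0.0538). The small intestine contrast of Fgf9 was past the threshold without GFP-positive replicate 3 (adjusted p = 0.0270) or GFP-negative replicate 1 (0.0385) and in 3 of 9 other fits.

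Markers of epithelium, where Fgf9 is also known to be expressed in mouse embryos, had higher sums in the colon in both GFP states, as Fgf9 had. Of 9 epithelial markers 7 were higher in GFP-positive colon than in GFP-positive small intestine, with sums of 325 to 1847 against 12.2 to 21.7 CPM. In GFP-negative cells 0 of the 9 were called, with sums of 1113 to 2506 CPM in the colon against 235 to 779 CPM in the small intestine. Within GFP-positive colon, where epithelial marker sums were 325, 650 and 1847 CPM in replicates 1 to 3, Fgf9 stood at 14.3, 10.3 and 17.5 CPM. None of the epithelial markers was at 0 in a group. Mesothelial marker sums (8 genes) were higher in the colon too. They were 65.7 to 318 against 0.998 to 5.67 CPM in GFP-positive and 143 to 400 against 40.7 to 102 CPM in GFP-negative cells. Only 2 of the 8 were tested, with 1 called higher in GFP-positive and 0 in GFP-negative colon. In GFP-positive small intestine 4 were at 0, and 5 in GFP-positive colon. The part of epithelial or mesothelial cells in Fgf9 was not tested.

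Across the colon minus small intestine comparisons, 2 of the 7 FGFs were called in GFP-positive cells and 3 in GFP-negative cells, all higher in the colon. Over all tested genes 4.57% and 4.21% were called in these cells, 2.75% and 2.2% higher in the colon. The genes in GFP-positive cells were Fgf10 and Fgf9, and in GFP-negative cells Fgf7, Fgf10 and Fgf9. Fgf10 was 10.8-fold higher in GFP-positive colon (3.44 ± 0.53, adjusted p = 0.00253) and 5.10-fold higher in GFP-negative colon (2.35 ± 0.48, adjusted p = 0.0181). The second of these calls was lost without GFP-negative colon replicate 2 (adjusted p = 0.0735), without GFP-negative colon replicate 3 (0.0794) and without GFP-negative small intestine replicate 1 (0.0616). Fgf7 was 7.44-fold higher in GFP-negative colon (2.90 ± 0.32, adjusted p = 0.00112, called in all 6 fits with 1 library left out), and in GFP-positive cells its colon minus small intestine difference was −0.45 ± 0.30 (adjusted p = 0.515). Median log2 differences over the 7 genes were −0.07 in GFP-positive and 0.90 in GFP-negative cells, beside −0.02 and −0.06 over all tested genes. These comparisons share libraries with the GFP contrasts and are not independent of them.

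**Figure D2:**
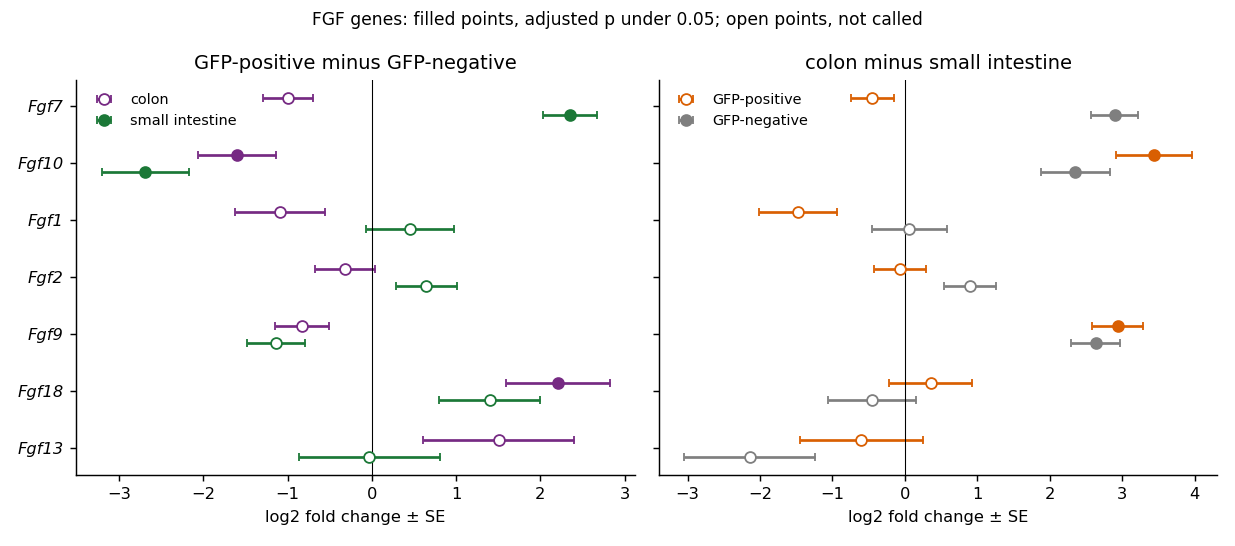
Log2 fold change with its SE for each FGF gene, GFP-positive minus GFP-negative on the left (colon and small intestine) and colon minus small intestine on the right (GFP-positive and GFP-negative cells). Filled points have an adjusted p under 0.05. Fgf7 lies on opposite sides of 0 in colon (−0.99) and small intestine (2.35), and all called tissue differences are above 0.

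Fgf18 (ENSMUSG00000057967, GRCm38 chr11:33117430-33147400, minus strand) was the 1 member that rose in GFP-positive colon. It had 9.12, 5.55 and 4.91 CPM in GFP-positive against 1.61, 1.83 and 0.760 CPM in GFP-negative colon. In the small intestine it had 2.75, 5.12 and 7.44 CPM in GFP-positive against 1.32, 1.15 and 3.38 CPM in GFP-negative cells. The colon groups did not overlap, and in the small intestine the lowest GFP-positive library lay below the highest GFP-negative one. Fgf18 was 4.62-fold higher in GFP-positive colon (2.21 ± 0.61, adjusted p = 0.0412), on 6 to 83 counts per library. The call was lost whichever colon library was left out, at adjusted p of 0.164, 0.0897 and 0.0600 for the 3 GFP-positive libraries in turn and 0.103, 0.0852 and 0.156 for the 3 GFP-negative ones. It was also lost with limma-voom (0.0713) and without the count filter (0.0606). The small intestine contrast was 1.40 ± 0.60 (adjusted p = 0.174), the difference between the contrasts 0.81 ± 0.84 (adjusted p = 0.764), and neither tissue difference was called. Lymphatic endothelial markers rose in GFP-positive cells for 6 of 7 genes in each tissue, to 18000 to 21050 against 205 to 336 CPM in the colon, with none at 0 in any group. Trophocyte markers rose for 6 of 8 genes in the colon (8418 to 8769 against 2179 to 2852 CPM) and 7 of 8 in the small intestine (12000 to 19350 against 1872 to 3058 CPM). Pan-endothelial markers rose for 6 of 8 in the colon (1991 to 2379 against 276 to 682 CPM) and 0 of 8 in the small intestine (718 to 2302 against 601 to 1907 CPM). Blood endothelial markers mostly fell. In the colon 2 of 8 rose and 3 fell (294 to 343 against 222 to 732 CPM). In the small intestine 1 rose and 6 fell (120 to 382 against 540 to 1900 CPM), with Sox17 at 0 in GFP-positive cells. No other marker of these lists was at 0 in a group, and the part of these cells in the Fgf18 values was not tested.

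By direction, 1 of the 7 FGFs rose (Fgf18) and 1 fell (Fgf10) in GFP-positive colon, where 8.69% of all tested genes were called, 4.62% higher and 4.06% lower. In GFP-positive small intestine 1 rose (Fgf7) and 1 fell (Fgf10), where 10.9% were called, 4.24% higher and 6.63% lower. The median log2 fold change over the 7 genes was −0.83 in the colon and 0.45 in the small intestine, beside −0.03 and −0.03 over all tested genes. Groups that did not overlap were frequent, at 35.6% of all tested genes in the colon and 21.9% in the small intestine.

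Fgf2 (ENSMUSG00000037225, GRCm38 chr3:37348346-37410108, plus strand), basic FGF, was called in no comparison. It had 45.4, 33.3 and 39.4 CPM in GFP-positive against 41.4, 49.6 and 56.4 CPM in GFP-negative colon, and 44.8, 19.0 and 60.1 CPM in GFP-positive against 36.2, 17.2 and 25.7 CPM in GFP-negative small intestine. Replicate 2 was the lowest in both small intestine groups, and the groups overlapped within each tissue. Its contrasts were −0.32 ± 0.36 in the colon (adjusted p = 0.725) and 0.65 ± 0.36 in the small intestine (adjusted p = 0.317). Nudt6, read from the opposite strand, shares 640 exonic bases with Fgf2 and had 223 counts in all, so a share of the Fgf2 counts may belong to it.

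Fgf1 (ENSMUSG00000036585, GRCm38 chr18:38838673-38929472, minus strand), acidic FGF, was not called in any comparison either. It had 7.03, 7.53 and 10.6 CPM in GFP-positive against 22.3, 20.9 and 10.4 CPM in GFP-negative colon, and 22.9, 8.67 and 38.9 CPM in GFP-positive against 29.0, 10.9 and 11.4 CPM in GFP-negative small intestine. The small intestine values spread widely within both groups, and in the colon only GFP-negative replicate 3 reached into the GFP-positive range. The contrasts of Fgf1 were −1.09 ± 0.53 in the colon (adjusted p = 0.295) and 0.45 ± 0.52 in the small intestine (adjusted p = 0.675), and their difference −1.54 ± 0.74 (adjusted p = 0.376).

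Fgf13 (ENSMUSG00000031137, GRCm38 chrX:59062145-59568071, minus strand), the intracellular homologous factor, was low and was called nowhere. It had 2.31, 3.17 and 3.66 CPM in GFP-positive against 2.05, 0.914 and 0.253 CPM in GFP-negative colon, and 5.91, 1.28 and 6.73 CPM in GFP-positive against 9.98, 3.03 and 1.13 CPM in GFP-negative small intestine. Its colon groups did not overlap and its small intestine groups overlapped fully. The colon contrast was 1.51 ± 0.90 (adjusted p = 0.409) and the small intestine contrast −0.03 ± 0.84 (adjusted p = 0.991), with the largest standard errors of the 7 genes.

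Levels of the 7 genes were set against each other only per transcript length, as TPM rescaled to the protein-coding genes of each library. In GFP-positive colon the order was Fgf2 (35.7 ± 8.84 TPM), Fgf7 (28.6 ± 6.98), Fgf9 (13.9 ± 5.38), Fgf18 (13.8 ± 5.49), Fgf10 (12.7 ± 4.83), Fgf13 (5.59 ± 2.26) and Fgf1 (4.78 ± 1.51). Its neighbours overlapped, except that Fgf7 lay above Fgf9 and Fgf10 above Fgf13 in all libraries. In GFP-negative colon Fgf7 led (71.7 ± 14.5 TPM), followed by Fgf2 (68.5 ± 18.6), Fgf10 (35.7 ± 2.74), Fgf9 (27.8 ± 1.26), Fgf1 (20.5 ± 18.7), Fgf18 (3.19 ± 1.33) and Fgf13 (2.71 ± 2.16). The pairs Fgf2 and Fgf10, Fgf10 and Fgf9, and Fgf1 and Fgf18 did not overlap there.

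The small intestine had another order. In its GFP-positive cells Fgf2 (69.9 ± 74.3 TPM) and Fgf7 (44.9 ± 11.9) led by mean. Fgf1 (21.6 ± 7.88), Fgf18 (10.2 ± 4.21), Fgf13 (7.39 ± 5.31) and Fgf9 (5.64 ± 7.08) were next and Fgf10 last (0.573 ± 0.445). Fgf2 stood first through replicate 1 alone, with 155 TPM on 539 counts, against 34.7 TPM on 509 counts in replicate 3. In replicates 2 and 3 Fgf7 (31.8 and 54.9 TPM) lay above Fgf2 (19.8 and 34.7 TPM). Only Fgf7 and Fgf1 were neighbours without overlap in that group. In GFP-negative small intestine all neighbours overlapped, with means from 27.4 ± 33.2 TPM for Fgf1 down to 4.25 ± 0.791 TPM for Fgf9. The Fgf1 mean there came from 65.7, 9.67 and 6.96 TPM in replicates 1, 2 and 3. The rank of the 7 genes in each group was the same on the deposited TPM.

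Summed over the 6 genes other than Fgf13, the FGF ligand level was 115, 83.7 and 130 TPM in GFP-positive against 214, 221 and 248 TPM in GFP-negative colon, without overlap. The sum was 238, 75.9 and 145 TPM in GFP-positive against 132, 37.7 and 53.3 TPM in GFP-negative small intestine, where the groups overlapped. Fgf2 made up 65.35%, 26.07% and 23.93% of the sum in GFP-positive small intestine replicates 1, 2 and 3. Fgf10 made up 7.34% to 13.9% of the sum in GFP-positive against 14.8% to 17.1% in GFP-negative colon, and 0.101% to 0.490% in GFP-positive against 6.36% to 16.9% in GFP-negative small intestine. Fgf18 made up 7.82% to 17.5% of the sum in GFP-positive against 0.698% to 1.96% in GFP-negative colon. The ratio of Fgf7 to Fgf10 TPM was 3.93, 1.77 and 1.78 in GFP-positive against 2.09, 1.70 and 2.20 in GFP-negative colon. In the small intestine that TPM ratio was 51.4, 415 and 77.4 in GFP-positive cells, the middle value on 2 Fgf10 counts, against 1.70, 0.786 and 1.83 in GFP-negative cells. The ratio of counts there was smaller, at 16.8, 116 and 21.6 against 1.21, 0.303 and 0.891. Relative to protein-coding genes, Fgf10 had 2.60, 2.90 and 2.65 counts per TPM in GFP-positive against 1.16, 2.92 and 1.19 in GFP-negative small intestine. The size of the ratio thus depends on the scale. GFP-positive small intestine was thus the group in which Fgf7 stood far above Fgf10 in every library, given as a description with no test.

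**Figure D3:**
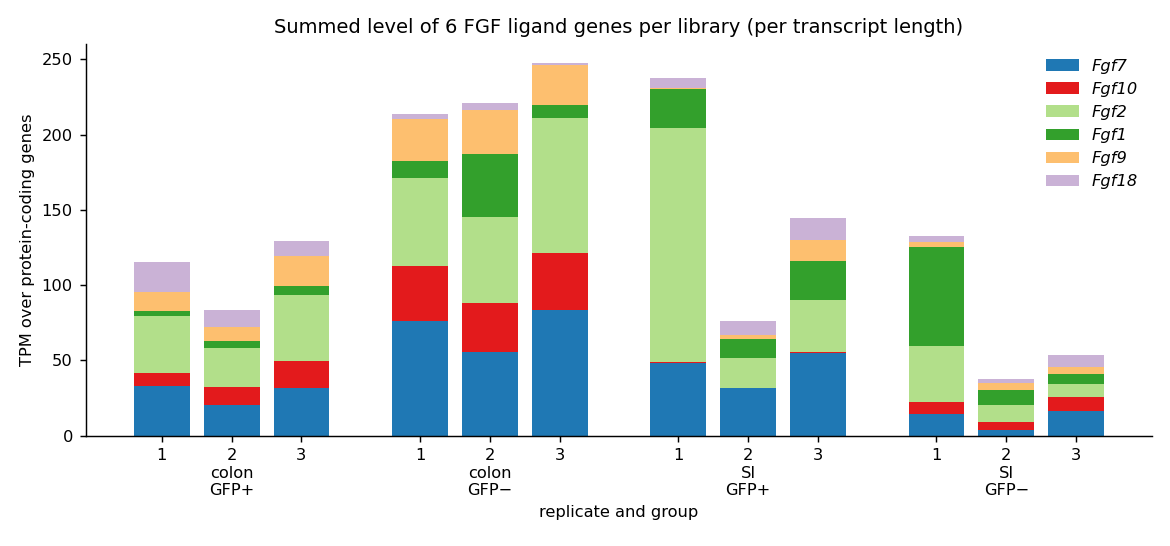
Summed level of 6 FGF ligand genes in each library, in TPM over protein-coding genes, stacked by gene, for the 3 replicates of each group. GFP-negative colon has the highest sums among the colon libraries (214 to 248 TPM), and the Fgf10 band is nearly absent from GFP-positive small intestine (at most 0.490% of the sum).

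Genes whose profile over the 12 libraries was closest to that of a member were found by the root mean square (RMS) difference of centred log2 CPM. For Fgf7 they were Serpina3c (RMS difference 0.446), Plod2 (0.492) and Slc8a3 (0.503), against a spread of Fgf7 itself of 1.15. Plod2, a collagen-modifying lysyl hydroxylase, averaged 81.4 and 183 CPM in GFP-positive and GFP-negative colon and 91.5 and 31.7 CPM in GFP-positive and GFP-negative small intestine. For Fgf10 they were Ociad2, Esr1 and Cyp2s1 (0.706 to 0.734, spread 1.96), and Esr1, the oestrogen receptor, averaged 6.41 and 29.1 CPM in GFP-positive and GFP-negative colon and 1.55 and 6.83 CPM in GFP-positive and GFP-negative small intestine. For Fgf18 they were Nr1h3 (0.493), the enkephalin precursor Penk (0.537) and Bmp2k (0.543), with a spread of Fgf18 of 1.01. The closest were Lurap1l, Srd5a2 and Cdh13 for Fgf9 (0.560 to 0.568), Tubd1, Phactr1 and Zfhx4 for Fgf1 (0.388 to 0.446), Plscr4, Cdkl2 and Fam210a for Fgf2 (0.234 to 0.262), and Hoxb3os, Fign and Scn2a for Fgf13 (0.554 to 0.602). Scn2a encodes a voltage-gated sodium channel subunit.

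Among the rest of the family, 12 other secreted FGF genes were listed, 7 of them were in the table (Fgf6, Fgf8, Fgf15, Fgf16, Fgf17, Fgf21 and Fgf23) and 0 passed the count filter, with at most 15 counts in a group and 1.03 CPM in a library. Fgf15, the endocrine signal made by ileal epithelium, was among these, at 4 and 6 counts in GFP-positive and GFP-negative colon and 10 and 5 counts in GFP-positive and GFP-negative small intestine. Of the other homologous factors, Fgf12 had 14.8, 22.1 and 19.8 CPM in GFP-positive against 3.96, 8.68 and 6.33 CPM in GFP-negative colon. It had 18.7, 20.0 and 2.60 CPM in GFP-positive against 0.721, 0 and 0 CPM in GFP-negative small intestine, and no group overlapped its counterpart. Fgf12 rose in GFP-positive small intestine (5.72 ± 1.03, adjusted p = 0.00433, on 450 against 6 counts, and lost in 3 of 9 other fits at adjusted p up to 0.155), and the colon contrast was 1.57 ± 0.77 (adjusted p = 0.295). The difference of these contrasts was −4.15 ± 1.26 (adjusted p = 0.125). Its higher level in GFP-negative colon than in GFP-negative small intestine (4.60 ± 1.02, adjusted p = 0.0296) was lost in 3 of 6 fits with 1 library left out, at adjusted p up to 0.0993 without GFP-negative colon replicate 2. Fgf11 was called nowhere, with group means of 12.6 to 13.4 CPM, and Fgf14 was too low to test.

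The receptors that the ligands act on showed 1 pattern common to both tissues. Fgfr2 fell in GFP-positive cells of the colon, at 56.1 ± 10.8 against 191 ± 20.3 CPM (−1.77 ± 0.30, adjusted p = 0.00271), and of the small intestine, at 84.3 ± 40.5 against 295 ± 51.0 CPM (−1.80 ± 0.30, adjusted p = 0.00234), and both calls held in every alternative fit. The difference between these contrasts was 0.04 ± 0.41 (adjusted p = 0.991). Gene-level counts do not separate the epithelial from the mesenchymal splice form of Fgfr2. Fgfr4 fell as well, at 0.346 ± 0.298 against 8.86 ± 2.69 CPM in the colon (−4.61 ± 0.87, adjusted p = 0.00492) and 0.447 ± 0.395 against 5.38 ± 0.351 CPM in the small intestine (−3.50 ± 0.81, adjusted p = 0.0149). The small intestine call of Fgfr4 was lost in 2 of 9 other fits, at adjusted p up to 0.0964.

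Fgfr1, the main FGF receptor of mesenchymal cells, had 303 ± 19.0 against 247 ± 33.7 CPM in GFP-positive and GFP-negative colon (0.29 ± 0.22, adjusted p = 0.539) and rose in the small intestine, with 305 ± 63.3 against 181 ± 46.8 CPM (0.75 ± 0.22, adjusted p = 0.0435). That call was lost in 4 of 6 fits with 1 library left out, at adjusted p up to 0.151 without GFP-positive small intestine replicate 3, and with replicate number as a block (0.0730). Fgfr3 and Fgfrl1, a receptor that lacks the kinase domain, were called in no comparison, Fgfr3 with adjusted p = 0.0577 between the GFP-negative groups (0.0428 with the replicate block). No receptor gene was called between colon and small intestine. Altogether 0 of 5 receptor genes rose and 2 fell in GFP-positive colon, where 8.69% of all tested genes were called. In GFP-positive small intestine 1 rose and 2 fell, where 10.9% were called. Epithelial markers, which would carry the epithelial receptor form, were called lower for 0 of 9 genes in GFP-positive colon. All 9 had a log2 fold change below 0 there (median −1.13), with sums of 325 to 1847 against 1113 to 2506 CPM. In GFP-positive small intestine 7 of the 9 epithelial markers fell (12.2 to 21.7 against 235 to 779 CPM). None of these markers was at 0 in a group. Their part in the Fgfr2 and Fgfr4 values was not tested.

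**Figure D4:**
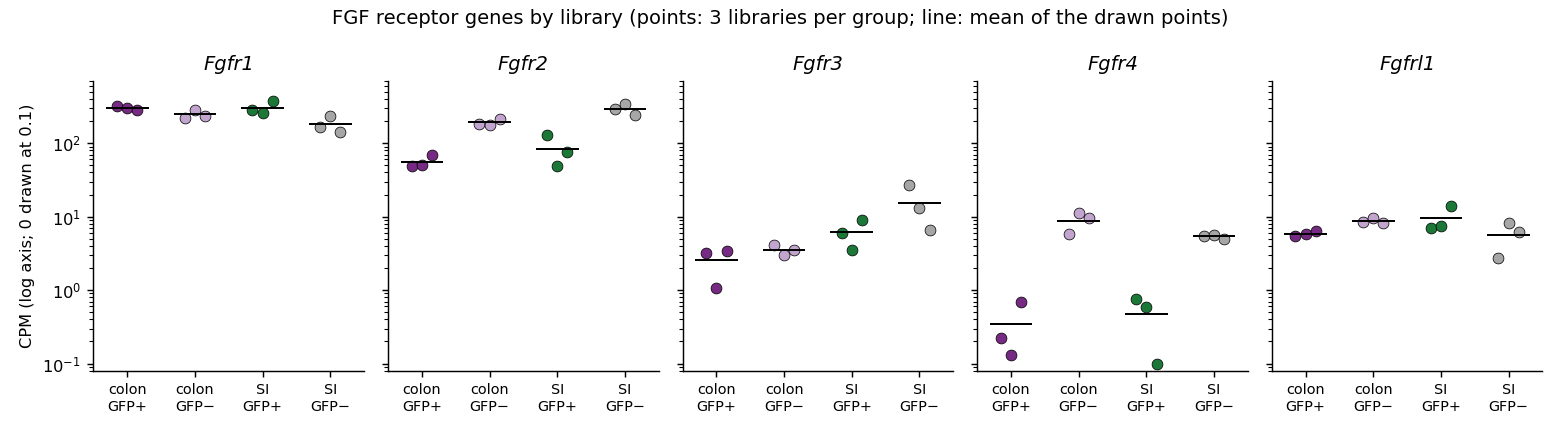
Level of the 5 FGF receptor genes in every library, in CPM on a log axis with 0 drawn at 0.1, for the 4 groups, with lines at the mean of the drawn points. Fgfr2 and Fgfr4 are lower in GFP-positive than in GFP-negative libraries of both tissues without overlap.

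Of the 9 co-receptors and binding proteins listed, 7 were tested. In GFP-positive colon 2 rose and 3 fell, where 8.69% of all tested genes were called. In GFP-positive small intestine 2 rose and 4 fell, where 10.9% were called. Flrt2 and Flrt3, transmembrane proteins that bind FGF receptors, rose in both tissues. Flrt2 had 102 ± 7.87 against 28.1 ± 4.07 CPM in the colon (1.86 ± 0.45, adjusted p = 0.0225) and 64.3 ± 21.1 against 8.77 ± 5.73 CPM in the small intestine (2.88 ± 0.48, adjusted p = 0.00272). Flrt3 had 56.6 ± 5.72 against 23.1 ± 8.77 CPM in the colon (1.29 ± 0.32, adjusted p = 0.0220) and 80.0 ± 17.4 against 19.4 ± 6.50 CPM in the small intestine (2.04 ± 0.32, adjusted p = 0.00172). Both small intestine calls held in every fit with 1 library left out, and the colon calls of Flrt2 and Flrt3 were lost in 6 and 4 of 6, at adjusted p up to 0.0972 (GFP-negative replicate 2 left out) and 0.0766 (GFP-positive replicate 1). Nrp1, a co-receptor of several growth factors, Cd44, a hyaluronan receptor whose variants carry heparan sulfate, and Flrt1 fell in both tissues, Nrp1 by 1.5 ± 0.25 on the log2 scale in the colon (adjusted p = 0.00257) and by 1.0 ± 0.25 in the small intestine (adjusted p = 0.0212, and 0.0665 without GFP-negative replicate 1). Cd44 had 67.03 ± 13.88 against 257.3 ± 25.4 CPM in the colon, a log2 fall of 1.94 ± 0.48 (adjusted p = 0.0281). In the small intestine it had 40.46 ± 15.02 against 187.1 ± 157.1 CPM, a log2 fall of 2.21 ± 0.49 (adjusted p = 0.0140). These Cd44 calls were lost in 6 and 2 of 6 fits with 1 library left out, at up to 0.121 (GFP-positive colon replicate 1) and 0.0634 (GFP-positive small intestine replicate 2). Cd44 ran from 85.36 to 368.1 CPM in GFP-negative small intestine, where replicate 3 had leukocyte markers of 2941 CPM. The part of leukocytes in the Cd44 values was not tested. Flrt1 fell by 3.39 ± 0.63 in the colon (adjusted p = 0.00465). With replicate number as a block, Flrt1 in the small intestine was no longer called (adjusted p = 0.0908, against 0.0472 without it), nor in 5 of 6 fits with 1 library left out (up to 0.151 for GFP-negative replicate 1).

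Fgfbp1, a carrier protein that frees FGFs from the matrix, had no count in any of the 3 GFP-positive small intestine libraries. It was at least 34.9-fold higher in GFP-positive colon than in that group (adjusted p = 0.00262; the bound takes 3 counts over the group as a floor) and at least 5.08-fold lower in GFP-positive than in GFP-negative small intestine (adjusted p = 0.0161, and 0.0502 with the replicate block), on 12 counts in the GFP-negative libraries. Its level in GFP-negative cells was higher in the colon than in the small intestine as well (3.28 ± 0.77, adjusted p = 0.0423), and this call was lost in all 6 fits with 1 library left out, at adjusted p up to 0.174 (without GFP-negative colon replicate 3), and with the replicate block (0.0665). Epithelial marker sums had the same order of groups. They were 12.2 to 21.7 and 235 to 779 CPM in GFP-positive and GFP-negative small intestine. In GFP-positive and GFP-negative colon they were 325 to 1847 and 1113 to 2506 CPM. The part of epithelial carry-over in the Fgfbp1 values was not tested.

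Heparan sulfate proteoglycans hold FGFs at the cell surface. Of 12 core protein genes 11 were tested. In GFP-positive colon 2 rose and 2 fell, where 8.69% of all tested genes were called. In GFP-positive small intestine 1 rose and 2 fell, where 10.9% were called. Gpc3 had 119 ± 25.4 against 62.2 ± 10.5 CPM in the colon (0.93 ± 0.23, adjusted p = 0.0222; lost in 4 of 6 fits with 1 library left out, at up to 0.106 without GFP-positive replicate 2) and 196 ± 55.6 against 61.9 ± 3.32 CPM in the small intestine (1.66 ± 0.23, adjusted p = 8.55e-04). Gpc1 fell in the colon, with 26.6 ± 3.92 against 130 ± 8.23 CPM (−2.29 ± 0.36, adjusted p = 0.00175), and in the small intestine, with 33.4 ± 13.7 against 80.4 ± 44.4 CPM (−1.27 ± 0.35, adjusted p = 0.0343, and 0.0902 with the replicate block). Gpc6 fell in the small intestine (−1.25 ± 0.26, adjusted p = 0.00836), and in the colon Sdc3 fell (−1.24 ± 0.21, adjusted p = 0.00258) and Agrn rose (1.01 ± 0.28, adjusted p = 0.0397). With 1 library left out the calls of Agrn and of Gpc1 in the small intestine were lost in 6 and 3 of 6 fits, at up to 0.153 (GFP-negative colon replicate 3) and 0.126 (GFP-positive small intestine replicate 2).

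Of 13 heparan sulfate enzyme genes 11 were tested. In GFP-positive colon 1 rose and 1 fell, where 8.69% of all tested genes were called. In GFP-positive small intestine 1 rose and 2 fell, where 10.9% were called. Hpse, the heparanase that cuts the chains, fell in the colon with 13.9 ± 5.35 against 136 ± 7.80 CPM (−3.29 ± 0.44, adjusted p = 7.51e-04), and in the small intestine with 7.23 ± 2.29 against 24.0 ± 14.9 CPM (−1.74 ± 0.43, adjusted p = 0.0219, and 0.0766 with the replicate block). The small intestine call of Hpse was lost in 3 of 6 fits with 1 library left out, at up to 0.0874 (GFP-positive replicate 2). Sulf2, which removes sulfate groups and so changes FGF binding, had 212 ± 9.02 against 312 ± 48.7 CPM in the colon and 544 ± 159 against 236 ± 88.0 CPM in the small intestine, where it rose (1.20 ± 0.27, adjusted p = 0.0137, and 0.0521 without GFP-positive replicate 3). The colon effect minus small intestine effect of Sulf2 was −1.76 ± 0.39 (adjusted p = 0.0383), a call lost in 10 of 12 fits with 1 library left out, at adjusted p up to 0.112 without GFP-negative colon replicate 2, and with the replicate block (0.0534).

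Downstream of the receptors, 0 of 8 signal transducer genes were called in any comparison. Of 16 feedback and target genes 15 were tested. In GFP-positive colon 1 rose and 5 fell, where 8.69% of all tested genes were called. In GFP-positive small intestine 0 were called, against 10.9% of all tested genes. The 3 tested Sprouty genes, feedback inhibitors of receptor tyrosine kinase signalling, fell in the colon. Spry2 had 57.9 ± 9.45 against 114 ± 5.02 CPM (−0.98 ± 0.21, adjusted p = 0.0112), Spry4 30.5 ± 6.57 against 82.7 ± 4.37 CPM (−1.44 ± 0.33, adjusted p = 0.0158) and Spry1 46.4 ± 6.60 against 92.5 ± 10.2 CPM (−1.0 ± 0.24, adjusted p = 0.0205). Ccnd1, the cyclin D1 gene, rose, with 217 ± 14.7 against 87.1 ± 9.02 CPM (1.32 ± 0.32, adjusted p = 0.0202). The list did not move as 1 in the colon, where 10 of the 15 genes had a log2 fold change below 0 and 5 above. Dusp6 and Egr1, not called and given beyond the limit on named genes, were higher by mean. Dusp6 had 122 ± 13.8 against 72.4 ± 20.6 CPM and Egr1 2529 ± 670 against 1687 ± 409 CPM. With 1 colon library left out, the calls of Spry2, Spry4, Spry1 and Ccnd1 were lost in 1, 4, 5 and 5 of 6 fits, at adjusted p up to 0.0683 (GFP-positive replicate 2 left out), 0.0866 and 0.0989 (GFP-positive replicate 1) and 0.0870 (GFP-negative replicate 3). The other genes that fell, Il17rd and Etv1, were outside the limit of 4 named genes per list and are given because the count is small: both calls were lost in all 6 such fits, at adjusted p up to 0.159 and 0.143, and with the replicate block (0.0660 and 0.0563). Etv1 is also a marker of interstitial cells of Cajal and is itself 1 of the 4 markers listed for them. All 4 fell in GFP-positive colon, with none at 0. Their sums, Etv1 included, were 21.5 to 46.9 against 110 to 193 CPM. Etv1 alone had 12.3 ± 4.49 against 46.1 ± 6.11 CPM. The part of these cells in the Etv1 values was not tested.

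The small intestine values of the Sprouty genes were −0.43 ± 0.24 for Spry1, 0.10 ± 0.21 for Spry2 and −1.04 ± 0.33 for Spry4 (adjusted p = 0.311, 0.845 and 0.0633). The colon effect minus the small intestine effect was called for 0 of the 15 genes, so a difference between colon and small intestine was not shown. Of all tested genes only 2.06% were called for this difference, so a count of 0 in so short a list says little. Between tissues, Ccnd1 was higher in GFP-positive colon than in GFP-positive small intestine (1.58 ± 0.32, adjusted p = 0.0129; lost in 2 of 6 fits with 1 library left out, at up to 0.0641 without GFP-positive small intestine replicate 1). The median log2 fold change over the 15 genes was −0.22 in the colon and −0.08 in the small intestine, beside −0.03 over all tested genes in each.

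**Figure D5:**
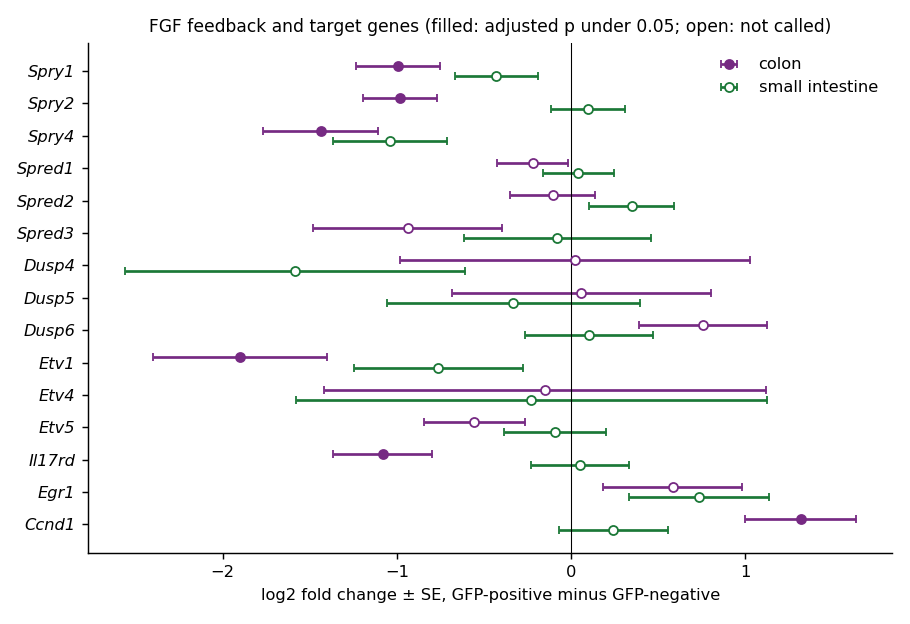
Log2 fold change with its SE, GFP-positive minus GFP-negative, of the 15 tested FGF feedback and target genes in colon and small intestine. Filled points have an adjusted p under 0.05, and all 6 of them are colon values, 5 below 0 and Ccnd1 above 0.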

How the data were processed

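The authors' deposited gene table holds estimated counts (Salmon 1.1.0 with R 3.6.1 and mm10, per the submitters' processing notes), whole numbers in 100% of cells and taken as rounded estimates. Annotation, filters and strand setting are not given in the sources used here. The second deposited table is log2(TPM + 1); small noncoding and other genes that are not protein coding took at least 91.9% of its TPM, so TPM was rescaled to protein-coding genes for level comparisons.

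Symbols and positions came from GENCODE M21 (31974 of 32052 identifiers matched), promoters from RefSeq. Counts were tested with edgeR 4.0.16 in R 4.3.3 (quasi-likelihood, robust), 1 mean per group over 12 libraries, TMM factors, filterByExpr at a minimum count of 10, and Benjamini-Hochberg adjustment over 16757 genes with a threshold of 0.05; a gene past it is called. CPM uses TMM-scaled totals. Alternatives were DESeq2 1.42.0, limma-voom and limma 3.58.1 on log2(TPM + 1) and log2(TPM + 0.1), RLE factors, no filter, protein-coding genes only, only the libraries compared, a replicate block and leaving out each library. The fitting steps were tested on simulated counts.

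Same-numbered GFP-positive and GFP-negative small intestine libraries deviated together (r = 0.323, 0.179 and 0.166 across genes), so the numbers pair these samples in the data. The labels do not say why, and the main fit did not use the pairing, which only the replicate block did. Named genes were the 7 members, every receptor and other FGF gene, up to 4 called genes per pathway list and comparison by smallest adjusted p, and the 3 nearest profiles per member. Members and lists were chosen with earlier results of these data known. Samples sorted on CD31 are not analysed here.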

Additional observations from a re-analysis of the deposited data

Results flagged for a closer look

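The GFP effect of Fgf7 differed between the tissues: the colon effect minus the small intestine effect was −3.35 on the log2 scale, by the interaction test across all genes, with GFP-positive libraries lower in the colon and higher in the small intestine, without overlap in either. Sulf2 was singled out by the same test, with a difference of −1.76 on the log2 scale. The Sulf2 call was lost in most fits with 1 library left out and with the replicate block, while the Fgf7 call was kept in all of these.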

How the results depend on the processing

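Of 560 member values under an alternative, 501 kept their direction and side of the threshold, 22 lost the threshold, 13 gained it and 24 changed sign. The 24 sign changes concern 9 member values, 0 of them called. The number of FGFs called in GFP-positive against GFP-negative small intestine was 1 in place of 2 with limma on log2(TPM + 1) and with only the libraries compared. In the colon it was 5 in place of 2 with only the libraries compared and 0 with any 1 colon library left out. Between tissues in GFP-positive cells it was 1 in place of 2 with limma on log2(TPM + 0.1) and on log2(TPM + 1).

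Sign changes were as follows. Fgf13 in the small intestine was 0.29 and 0.0606 with limma on log2(TPM + 0.1) and log2(TPM + 1), 0.0489 with limma-voom, 0.0083 with only the libraries compared, 0.0479 with the replicate block and −0.48 to 1.14 with 1 library left out. Fgf1 in the small intestine was −0.11 to 1.07 with 1 library left out. Fgf9 in the small intestine was 0.0795 on log2(TPM + 1), and its difference between contrasts −0.92 on log2(TPM + 0.1) and −0.65 on log2(TPM + 1), where that of Fgf10 was −0.47. Colon minus small intestine in GFP-positive cells gave Fgf2 0.0866 with limma-voom, 0.0188 with the block and −0.41 to 0.30 with 1 library left out, and Fgf13 0.0472 on log2(TPM + 0.1). In GFP-negative cells Fgf18 was 0.0332 and 0.0004 on log2(TPM + 0.1) and log2(TPM + 1) and −0.73 to 0.18 with 1 library left out, and Fgf1 −0.18 to 0.68. The cause was not tested.

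Over all genes, calls in the small intestine numbered 1821, but 982 and 671 with limma on log2(TPM + 0.1) and log2(TPM + 1) and 772 with only the libraries compared. Colon calls numbered 1456, but 3000 with only the libraries compared and 840 to 1161 with 1 library left out. Calls of the difference between contrasts numbered 345, but 1095 with DESeq2, 106, 160 and 179 with limma on log2(TPM + 0.1), on log2(TPM + 1) and limma-voom, and 67 to 1057 with 1 library left out. Calls between tissues in GFP-positive cells numbered 765, but 1430, 502, 376 and 364 with DESeq2, the same limma scales and limma-voom, and 424 to 635 with 1 library left out. In GFP-negative cells they numbered 706, but 1666 with DESeq2, 1394 and 1509 on the limma scales, 337 with only the libraries compared and 197 to 1227 with 1 library left out.

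On log2(TPM + 0.1) the median colon minus small intestine value of all genes was 0.31 in GFP-positive and 0.43 in GFP-negative cells, against −0.02 and −0.06 on counts. Calls were then 412 higher and 90 lower in GFP-positive cells (461 and 304 on counts) and 1186 higher and 208 lower in GFP-negative cells (369 and 337), and on log2(TPM + 1) 311 and 65, and 1318 and 191. The small intestine GFP contrast split 343 higher and 328 lower on log2(TPM + 1) (710 and 1111 on counts), and the difference between contrasts 43 and 63, and 49 and 111, on the 2 scales (195 and 150).

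Colon libraries with the same number did not deviate together (r = 0.00933, 0.0465 and 0.0903), nor did all pairs across tissues (0.0204 to 0.0540 in GFP-positive and 0.0281 to 0.223 in GFP-negative cells), so the numbers were not taken to pair them, although the column labels give replicate 2 of the colon and replicate 3 of all groups a shared identifier. The value of 0.223 was for replicate 3 of GFP-negative cells. It lay above the 0.179 and 0.166 of small intestine replicates 2 and 3. A shared source of the replicate 3 libraries was not tested, and the main fit took them as separate. With the replicate block 1535 genes were called in the colon, Fgf7 among them (adjusted p = 0.0192) and Fgf10 not (0.103), and the block changed no other member call. The interaction has no fit with only the libraries compared, since it uses all 12. Fgf10 and Fgf13 rest on as few as 2 counts in a library and Fgf18 on 6, and 3 libraries a group limit what can be detected.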
